A study of Homo sapiens with 6 samples.

Results

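The genes described here are the EGF receptor family of PANC-1 cells and its ligands, 10 genes taken by their symbols from the 63241 genes of the deposited table: the receptors EGFR, ERBB2 and ERBB3, the receptor inhibitor ERRFI1, and the ligands AREG, EREG, HBEGF, TGFA, BTC and EGF. PANC-1 is an established line from a human pancreatic ductal carcinoma. Wild-type PANC-1 cells were given Schisandrin B, a plant lignan, at 20 µM, or a DMSO vehicle kept under 0.1%, and were harvested at 24 h. Each group held 3 RNA-seq libraries, and the series title frames the study around ferroptosis and proliferation. Enough counts for a test were present for 8 of the 10 genes, and for 15773 genes of the table.

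Receptors of this family sit in the cell membrane and pair with each other when a ligand binds, which switches on their kinase and, through adaptors and RAS, the ERK and PI3K cascades. Ligands are made as membrane-bound precursors and are cut free by metalloproteases of the ADAM family. EGF, TGFA, AREG and EPGN bind EGFR, whereas EREG, BTC and HBEGF also bind ERBB4.

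All 4 tested ligand genes of the set rose with Schisandrin B, and the receptor genes moved apart. Over all genes tested, 35% were called higher and 35.2% lower. HBEGF rose 7.00-fold, AREG 2.31-fold, EREG 2.23-fold and BTC 2.12-fold. EGFR rose 1.32-fold and ERRFI1 1.61-fold, while ERBB3 fell 3.33-fold. ERBB2 was 1.11-fold lower, a call that several other settings did not keep.

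EREG, AREG and BTC lie beside EPGN, the gene of a further ligand, within 486 kb of chromosome 4, and HBEGF had the widest rise among the tested members, so the upstream sequences of these 5 genes are shown. Each is the 250 bases before the RefSeq transcription start on GRCh38.p14, written 5′ to 3′ on the gene's strand, with every match to a searched motif in capitals. For all 5 the RefSeq start is the gene start in the deposited table.
EPGN promoter, chr4:74308220-74308469, plus strand: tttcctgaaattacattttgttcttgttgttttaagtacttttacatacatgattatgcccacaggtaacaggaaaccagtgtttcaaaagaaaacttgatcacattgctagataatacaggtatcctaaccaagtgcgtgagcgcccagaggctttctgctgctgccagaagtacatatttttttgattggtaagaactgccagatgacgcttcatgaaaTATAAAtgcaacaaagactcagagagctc
EREG promoter, chr4:74364895-74365144, plus strand: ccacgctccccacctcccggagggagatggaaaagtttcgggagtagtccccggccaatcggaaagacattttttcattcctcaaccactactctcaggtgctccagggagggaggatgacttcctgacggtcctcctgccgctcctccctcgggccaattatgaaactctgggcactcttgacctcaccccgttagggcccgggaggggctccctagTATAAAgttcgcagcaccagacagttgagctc
AREG promoter, chr4:74444886-74445135, plus strand: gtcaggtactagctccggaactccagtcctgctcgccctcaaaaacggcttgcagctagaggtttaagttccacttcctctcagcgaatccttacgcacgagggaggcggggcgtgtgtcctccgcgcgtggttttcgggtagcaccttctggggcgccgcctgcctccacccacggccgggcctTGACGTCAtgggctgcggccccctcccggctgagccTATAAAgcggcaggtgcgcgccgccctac
BTC promoter, chr4:74794524-74794773, minus strand: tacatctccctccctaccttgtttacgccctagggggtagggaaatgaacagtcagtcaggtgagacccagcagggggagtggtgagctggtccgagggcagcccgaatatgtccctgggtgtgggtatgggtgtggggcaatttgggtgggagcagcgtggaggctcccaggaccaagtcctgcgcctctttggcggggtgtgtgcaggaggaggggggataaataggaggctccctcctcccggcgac
HBEGF promoter, chr5:140346604-140346853, minus strand: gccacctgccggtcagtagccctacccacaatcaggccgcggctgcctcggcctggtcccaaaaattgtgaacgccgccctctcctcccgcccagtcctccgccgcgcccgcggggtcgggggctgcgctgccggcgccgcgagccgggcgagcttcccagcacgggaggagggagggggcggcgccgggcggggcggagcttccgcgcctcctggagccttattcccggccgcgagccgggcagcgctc
In this window AREG held TGACGTCA, the cyclic AMP response element, at bases -65 to -58 counted from the start site. The letters TATAAA, the TATA box, were at -29 to -24 in AREG and EPGN and at -32 to -27 in EREG. Of 35116 RefSeq promoters cut to the same window, 1.65% held TGACGTCA and 10.7% held TATAAA on either strand. Other motifs searched on both strands were the AP-1 site TGANTCA (6.57% of promoters), the ATF4 response element TGATGNAA (3.14%) and the NF-kB site GGGNNTTCC (5.78%). These letters were not in the 5 windows shown, and none of the searched motifs was in those of BTC and HBEGF. A match or its absence describes these letters only.

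The libraries held 13656826 to 18289410 counts. Values in CPM are counts relative to a TMM-scaled library size. Across genes, libraries of one group correlated at Pearson's r of 0.986 to 0.988 in log2 CPM, and libraries of different groups at 0.921 to 0.929. Mitochondrial genes took 3.96% to 4.50% of counts in vehicle and 6.19% to 7.10% in Schisandrin B. No label ties the replicates to separate cultures, and the p-values therefore cover only the spread of these libraries, which may be technical. Of 9 duct and epithelial markers, the summed level was 1606 to 1713 CPM in vehicle and 750.1 to 753 CPM in Schisandrin B. KRT8, KRT18, KRT19 and SOX9 carried most of that sum, whereas EPCAM, CDH1 and KRT7 averaged under 1 CPM. KRT8, KRT18, KRT19 and SOX9 fell, whereas MUC1, the remaining tested marker of that list, rose by a log2 fold change of 0.57 from 6.04 CPM (adjusted p = 0.00237, edgeR). Of 13 markers of other cell types, 5 had 0 counts in all libraries and only CD68 and COL1A1 could be tested. The summed level of that list was 26.2 to 30.1 CPM in vehicle and 52.3 to 59.0 CPM in Schisandrin B, nearly all of it CD68. CD68, a lysosomal membrane protein and macrophage marker, stood at 26.0 CPM in vehicle and 53.5 CPM in Schisandrin B. COL1A1, a fibroblast collagen, fell from 1.48 to 0.772 CPM (adjusted p = 0.0142, edgeR). The part of these shifts in the results was not tested.

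Of the 8 members tested, 6 rose and 2 fell at an adjusted p under 0.05 by the quasi-likelihood test of edgeR. Over all genes tested, 35% were called higher and 35.2% lower, or 70.2% in either direction, so a call alone sets no gene apart in this comparison. The median log2 fold change was 0.89 over the 8 members and 0.00037 over all genes tested. The members were chosen with earlier results of these data known, so this difference is descriptive only. In all 8 members the 3 values of one group lay beyond the 3 of the other, 6 of them with the treated group higher and 2 with it lower. The same held for 73.5% of genes tested, 36.4% with the treated group higher and 37.1% with it lower. Because libraries are scaled to each other, each rise or fall is relative to the other genes. In bulk RNA, fewer cells that use a gene and less of its RNA per cell cannot be told apart.

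**Figure D1:**
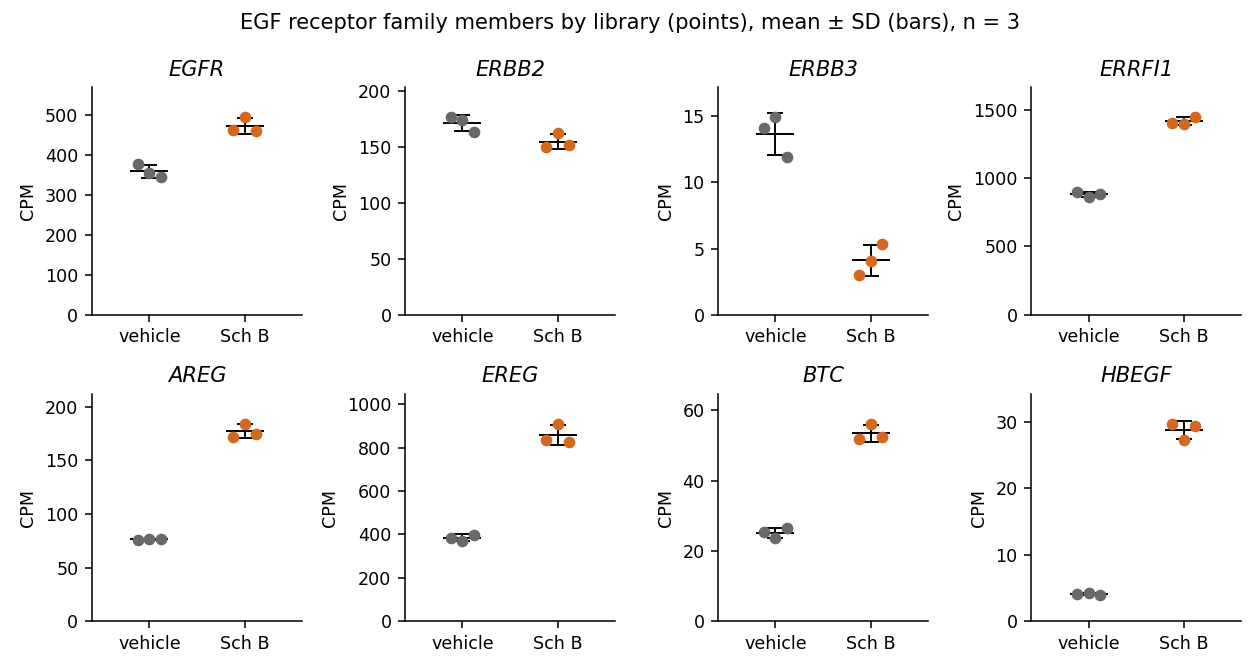
TMM-scaled CPM of the 8 tested members in each library, with vehicle in grey and Schisandrin B (Sch B) in orange, points for libraries and bars for the mean ± SD (n = 3). Each axis starts at 0. The groups lie apart in every panel, by the narrowest gap in ERBB2, where the lowest vehicle value was 164 and the highest Schisandrin B value 163 CPM.

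Among the receptors, EGFR rose moderately. EGFR (ENSG00000146648, chromosome 7, 55019017 to 55211628 on GRCh38) is the family's founding kinase and the receptor of all 6 ligands measured here. Its CPM were 377, 355 and 345 in vehicle replicates 1 to 3 and 462, 495 and 461 in Schisandrin B. All Schisandrin B values lay above all vehicle values, by more than the spread within either group. EGFR thus had a log2 fold change of 0.40 (SE 0.04, edgeR adjusted p = 3.84e-07), and 31.8% of genes tested had a larger one. The antisense gene EGFR-AS1 lies within EGFR and summed to 7 counts over the vehicle and 18 over the treated libraries, 0.0667% of the counts of EGFR.

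ERBB2, which has no ligand of its own and serves as the preferred partner of the others, differed little. ERBB2 (ENSG00000141736, chromosome 17, 39687914 to 39730426) had CPM of 177, 174 and 164 in vehicle and of 149.7, 163 and 152 in Schisandrin B. The groups did not overlap, but vehicle replicate 3 and Schisandrin B replicate 2 stood close together. Its log2 fold change of -0.15 (SE 0.05) had a 95% interval of -0.24 to -0.06 and, in edgeR, an adjusted p of 0.0105. The call was not kept under upper quartile scaling (adjusted p = 0.116), with library totals only (0.0521), among genes with at least 5 CPM in 3 libraries (0.204) or on log2 FPKM (0.328 with a pseudocount of 0.1). ERBB2 overlaps MIEN1 and PGAP3 on the opposite strand, whose counts amounted to 18.9% and 3.81% of its own. MIEN1 summed to 1697 counts over the vehicle and 1092 over the treated libraries, and PGAP3 to 263 and 299. Without a known strand setting for the counting, reads of such pairs cannot be told apart.

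ERBB3 fell, and it was the member with the lowest tested level under treatment. ERBB3 (ENSG00000065361, chromosome 12, 56076799 to 56103505) binds neuregulins, has a weak kinase and carries docking sites for PI3K. The vehicle libraries held 191, 214 and 215 of its counts and the treated ones 49, 58 and 74. In CPM these were 14.1, 15.0 and 11.9 against 2.99, 4.03 and 5.32, so the highest treated library held less than the lowest vehicle library. On the log2 scale ERBB3 changed by -1.74 (SE 0.18, edgeR adjusted p = 2.62e-07), and 2.64% of genes tested had a smaller one. Its SE was the widest of the 8 members, and the log2 fold change ran from -1.96 to -1.54 with 1 library left out and was -1.08 on log2 FPKM with a pseudocount of 1, a scale that understates changes of low genes.

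Per unit of length, EGFR and ERBB2 stood level in vehicle and apart with Schisandrin B. The authors' FPKM, counts scaled for length and depth, of EGFR were 33.1, 31.1 and 31.3 in vehicle and those of ERBB2 were 33.5, 32.6 and 31.9, and these ranges overlapped. With Schisandrin B, EGFR was at 44.1, 43.7 and 42.5 FPKM and ERBB2 at 31.1, 32.4 and 30.1 FPKM, without overlap. The ratio of EGFR to ERBB2 went from 0.975 ± 0.0186 to 1.39 ± 0.0377 (SD, n = 3 each). By exact permutation of the libraries the two-sided p was 0.1, the smallest possible for 3 against 3, and 0.15 after Benjamini-Hochberg adjustment over the 6 ratios compared. ERBB3 made up 3.75 ± 0.328% of the FPKM of the 3 receptors in vehicle and 0.888 ± 0.232% in Schisandrin B. The summed receptor FPKM was 67.0 ± 1.99 in vehicle and 75.3 ± 1.68 in Schisandrin B.

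ERRFI1 had the highest level of the family and rose. ERRFI1 (ENSG00000116285, chromosome 1, 8004404 to 8026309), also called MIG6, encodes a cytoplasmic protein that binds the EGFR kinase domain and blocks it, and its gene is itself known to be induced by EGFR signalling. Its CPM were 902, 864 and 883 in vehicle and 1408, 1399.5 and 1449 in Schisandrin B. Groups lay far apart, with little spread inside each. This was a log2 fold change of 0.68 (SE 0.04, edgeR adjusted p = 3e-11), and 22.2% of genes tested had a larger one. At 249 ± 7.06 FPKM in vehicle, only 1.31% of the genes tested had a higher mean FPKM. The ratio of ERRFI1 to EGFR in FPKM was 7.84 ± 0.165 in vehicle and 9.70 ± 0.442 in Schisandrin B (exact two-sided permutation p = 0.1, 0.15 adjusted). An lncRNA gene on the opposite strand overlaps ERRFI1 and held 0.13% of its counts.

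Among the ligands, EREG was the most abundant. EREG (ENSG00000124882, chromosome 4, 74365145 to 74388749) encodes epiregulin, a ligand of low affinity that gives prolonged signals. Its CPM were 386, 369 and 399 in vehicle and 836, 910.5 and 825 in Schisandrin B. Every treated library held more than any vehicle library by far more than either group's spread. Its log2 fold change was 1.16 (SE 0.05, edgeR adjusted p = 5.26e-13), and 12.5% of genes tested had a larger one.

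AREG, amphiregulin, a ligand with a heparin-binding stretch, moved by nearly the same factor. AREG (ENSG00000109321, chromosome 4, 74445136 to 74455005) had CPM of 76.1, 76.3 and 76.7 in vehicle and of 172, 184 and 175 in Schisandrin B. The 3 vehicle values were almost equal, and the treated ones were all higher. The log2 fold change was 1.21 (SE 0.05, edgeR adjusted p = 3.48e-13). In FPKM the ratio of EREG to AREG was 1.39 ± 0.0519 in vehicle and 1.33 ± 0.0359 in Schisandrin B, with overlapping groups (exact two-sided permutation p = 0.3, 0.3 adjusted).

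BTC, betacellulin, was lower in level and rose by a like amount. BTC (ENSG00000174808, chromosome 4, 74744759 to 74794523) had CPM of 25.3, 23.6 and 26.6 in vehicle and of 51.8, 56.2 and 52.4 in Schisandrin B. No treated value came near the vehicle values. The log2 fold change was 1.09 (SE 0.07, edgeR adjusted p = 4.96e-10). The 95% intervals of the log2 fold changes of EREG (1.07 to 1.24), AREG (1.12 to 1.30) and BTC (0.95 to 1.23) overlapped. The ratio of AREG to BTC in FPKM was 6.31 ± 0.445 in vehicle and 6.84 ± 0.0765 in Schisandrin B (exact two-sided permutation p = 0.2, 0.24 adjusted).

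HBEGF started low and rose furthest. HBEGF (ENSG00000113070, chromosome 5, 140332843 to 140346603) encodes a heparin-binding ligand whose precursor is shed in response to stress and to receptors coupled to G proteins. The vehicle libraries held 56, 60 and 72 of its counts and the treated ones 487, 391 and 409, or 4.15, 4.19 and 3.99 against 29.7, 27.2 and 29.4 CPM. The lowest treated value was many times the highest vehicle value. The log2 fold change was 2.81 (SE 0.11, edgeR adjusted p = 3.9e-13), and 1.10% of genes tested had a larger one. Its 95% interval of 2.60 to 3.02 lay above those of the other 3 tested ligands of the set. The ratio of BTC to HBEGF in FPKM fell from 5.72 ± 0.603 to 1.71 ± 0.155 without overlap (exact two-sided permutation p = 0.1, 0.15 adjusted).

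TGFA and EGF could not be tested. TGFA (chromosome 2, 70447284 to 70554193), transforming growth factor alpha, was read 0, 0 and 2 times in the vehicle and 3, 10 and 1 times in the treated libraries. Most of its treated counts came from replicate 2, and the groups overlapped. The ratio of count rates was 7.40 (95% interval 1.70 to 67.1, exact binomial), for counting error alone. EGF (chromosome 4, 109912883 to 110013766), the family's namesake ligand, had 0 counts in all 6 libraries. A count of 0 allows up to 0.0331 CPM over the libraries together, from a floor of 3 counts, so its expression was not detectable at this depth.

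The pool of the 6 ligands of the set was larger with Schisandrin B. Within it HBEGF gained share, while EREG and BTC lost some. EPGN, a ligand outside the set, is not counted in this pool. It went from 3.69 ± 1.14 FPKM in vehicle to 20.5 ± 0.174 FPKM in Schisandrin B. The summed FPKM of the 6 ligands was 137, 131 and 140.4 in vehicle and 327, 331 and 316 in Schisandrin B. EREG made up 53.8 ± 0.722% of that sum in vehicle and 51.9 ± 0.726% in Schisandrin B, and AREG 38.9 ± 0.947% and 39.0 ± 0.518% (SD, n = 3 each). BTC took 6.18 ± 0.288% and 5.70 ± 0.0705%. HBEGF took 1.09 ± 0.0628% in vehicle and 3.35 ± 0.278% in Schisandrin B, so it remained a minor part.

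**Figure D2:**
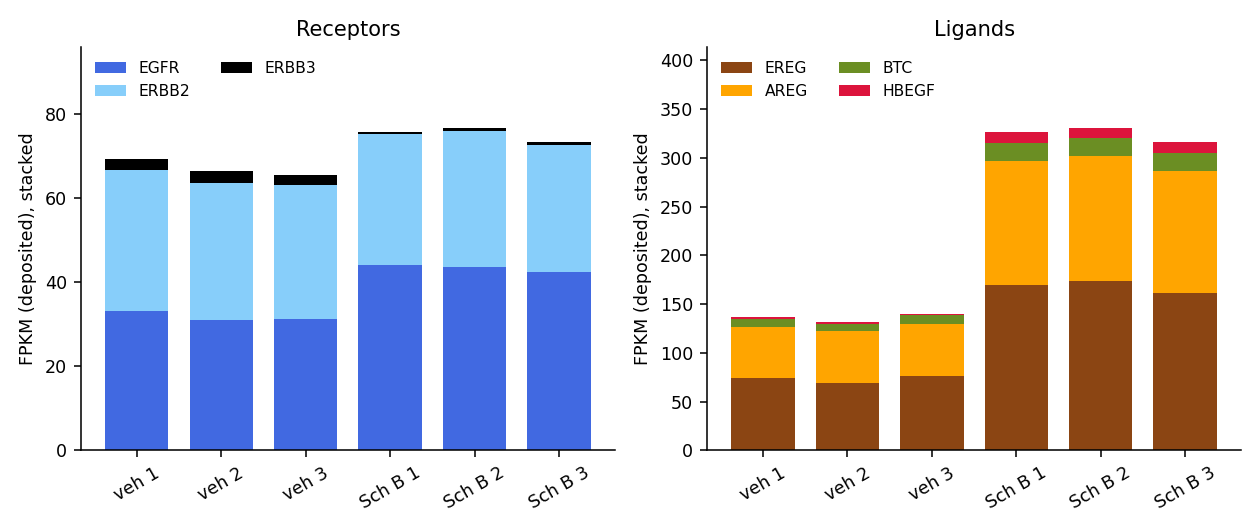
Stacked FPKM, as deposited, of the 3 receptors (left) and of the 4 ligands with tested counts (right) in each vehicle (veh) and Schisandrin B (Sch B) library. The ligand bars reach 131 to 140.4 FPKM in vehicle and 316 to 331 FPKM in Schisandrin B, mostly EREG and AREG, and the thin top part of the receptor bars, ERBB3, shrinks.

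In order of mean FPKM the family ran ERRFI1, EREG, AREG, ERBB2, EGFR, BTC, ERBB3, HBEGF, TGFA and EGF in vehicle. The ranges of neighbours overlapped for ERBB2 with EGFR and for TGFA with EGF, and for no other neighbours. With Schisandrin B, EGFR stood before ERBB2 and HBEGF before ERBB3, and no neighbours with counts overlapped. BTC had 8.42 ± 0.674 FPKM in vehicle and 18.5 ± 0.367 in Schisandrin B, HBEGF 1.48 ± 0.0387 and 10.9 ± 0.772, and ERBB3 2.51 ± 0.247 and 0.666 ± 0.159. HBEGF was below ERBB3 in every vehicle library and above it in every Schisandrin B library.

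On chromosome 4, EPGN, EREG, AREG and BTC follow each other with no other protein-coding gene between them in the deposited table. EPGN, epigen, which is not a member of the set, summed to 122, 127 and 193 counts in the vehicle and 859, 780 and 740 in the treated libraries, or 9.54 ± 1.01 against 53.3 ± 0.901 CPM. Its log2 fold change was 2.47 (SE 0.09, edgeR adjusted p = 1.58e-13), a 5.56-fold rise. Of the protein-coding neighbours within 200 kb, MTHFD2L, a mitochondrial folate enzyme on the EPGN side, was not called (log2 fold change -0.23, adjusted p = 0.107). PARM1 on the BTC side rose 2.44-fold (adjusted p = 1.91e-09). An lncRNA gene between AREG and BTC, ENSG00000249942, rose from 16 to 50 counts in all (adjusted p = 0.0017). AREG and EREG carry the TATA box shown in their upstream sequences above, as does EPGN, while BTC, with a rise of like size to AREG and EREG, has no exact match.

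**Figure D3:**
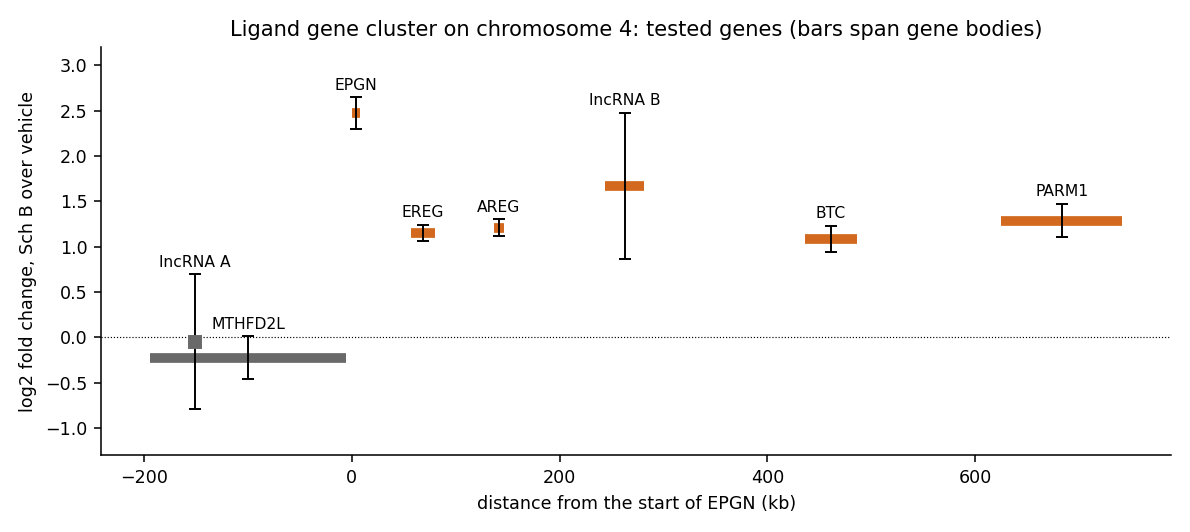
Log2 fold change of each tested gene around the ligand cluster of chromosome 4, plotted over its gene body by distance in kb from the start of EPGN, with error bars for 95% intervals. Orange genes passed an adjusted p of 0.05 and grey ones did not, and lncRNA A and B are genes without a symbol. EPGN lies highest at 2.47, while EREG, AREG and BTC lie between 1.09 and 1.21 and MTHFD2L at -0.23.

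Of the other receptor and ligands of the family, NRG2, a neuregulin, was the only one besides EPGN with enough counts. NRG2 stood at 2.52, 4.19 and 4.77 CPM in vehicle and at 4.83, 4.24 and 3.52 CPM in Schisandrin B, with overlapping groups and an adjusted p of 0.641. ERBB4, the receptor that EREG, BTC and HBEGF share with EGFR, and NRG3 had 0 counts in all libraries. NRG1 was read 2 times in all vehicle and 3 times in all treated libraries, and NRG4 1 and 4 times.

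Of 10 genes of ligand shedding 8 were tested, of which 5 rose and 1 fell. The share called, 75%, was near the 70.2% over all genes tested, of which 35% were called higher. Their median on the log2 scale was 0.55. ADAM17, the main protease for AREG, EREG, HBEGF and TGFA precursors, rose from 57.1 ± 5.96 to 162 ± 4.30 CPM (SD, n = 3 each), or 2.84-fold (log2 SE 0.06, adjusted p = 5.79e-12, edgeR). RHBDF1 and RHBDF2, the iRhom proteins that carry ADAM17 to the cell surface, rose 2.61-fold and 1.70-fold. FRMD8, which stabilises the iRhom complex, fell 1.41-fold. ADAM10, the protease chiefly tied to BTC and EGF, averaged 181 ± 4.72 CPM in vehicle and 190.4 ± 3.13 CPM under treatment (adjusted p = 0.138, edgeR).

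Genes that attenuate or sort the receptors were called at about the background share, 68.4% against 70.2% over all genes tested. Of 19 tested, 10 rose, 3 fell and 6 were not called, and the median was 0.12. HGS, which sorts ubiquitinated receptors on endosomes, rose 1.64-fold, and LRIG2, of the LRIG family of membrane regulators, 1.47-fold. ERBIN, a scaffold that binds ERBB2, rose 1.32-fold. EPN1, an endocytic adaptor, fell 1.65-fold, from 244 ± 4.26 to 148 ± 6.62 CPM.

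Downstream, more genes of the adaptor and RAS-ERK list fell than rose. Of 22 tested, 7 rose, 11 fell and 4 were not called, and the median was -0.18. That is 81.8% called, beside 35% higher and 35.2% lower over all genes tested. On log2 FPKM 8 of this list were called higher and 9 lower. MAP2K2, the kinase MEK2, fell from 1126 ± 22.0 to 668 ± 12.1 CPM and MAPK3, the kinase ERK1, fell 1.80-fold. GAB2, a docking protein, rose 2.71-fold, and SOS2, a RAS exchange factor, 1.73-fold. In the PI3K and PLC list 3 of 14 rose and 7 fell, with a median of -0.17. On log2 FPKM 5 of that list were called higher and 5 lower. The called share of that list, 71.4%, was again near the background. PIK3R3, a regulatory subunit of PI3K, fell 4.79-fold, from 91.5 ± 5.80 to 19.1 ± 2.03 CPM, and AKT1 fell 1.83-fold. MTOR fell 1.45-fold and PIK3R2, another regulatory subunit, 1.76-fold.

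Transcripts known to be induced by ERK were mostly higher. Of 17 tested, 12 rose and 2 fell, 3 were not called, and the median was 0.64. The rises called ran from 1.09-fold to 8.04-fold. Of these genes 82.4% were called, against 70.2% over all genes tested, and the difference was not tested. Over all genes tested 35% were called higher. The list was chosen with earlier results of these data known. These are RNA levels, and ERK activity was not measured. DUSP5, a phosphatase that inactivates ERK in the nucleus, rose from 9.95 ± 0.479 to 79.8 ± 4.43 CPM, 8.04-fold. SPRY4, a feedback inhibitor of RAS signalling, rose 1.85-fold and ETV5, an ETS factor, 1.56-fold. The members that fell were CCND1, cyclin D1, at 2.03-fold, and SPRY1, a relative of SPRY4, at 7.01-fold (log2 fold change -2.81). SPRY1 was named after its values were seen. AREG, EREG and HBEGF are themselves known as ERK-induced genes but were not in this list.

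**Figure D4:**
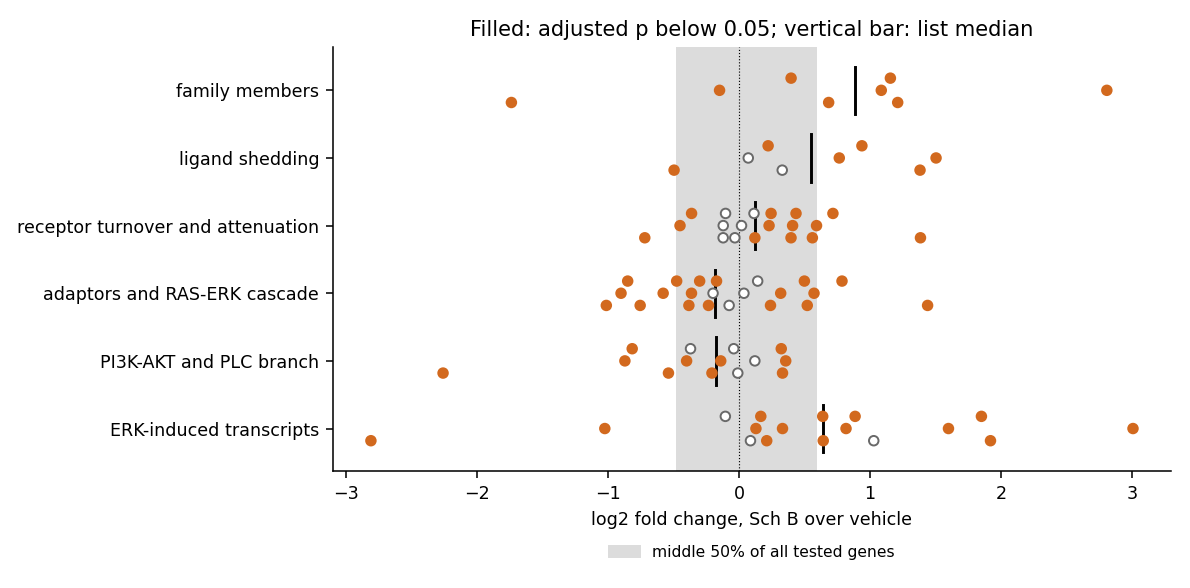
Log2 fold change, Schisandrin B over vehicle, of each tested gene of the family and of 5 pathway lists. Filled points passed an adjusted p of 0.05, open points did not, vertical bars are list medians, and the grey band holds the middle 50% of all genes tested (-0.47 to 0.59). HBEGF lies far right at 2.81 and ERBB3 far left at -1.74 in the family row.

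By the root mean square difference of centred log2 CPM over the 6 libraries, among 11453 protein-coding genes with at least 2 CPM, the genes most like EGFR were C2CD2, TMEM245 and EMC1 (0.016 to 0.0227). Those most like AREG were SLC2A10, MLPH and ICAM5. HBEGF lay nearest to AKNA, SLFN5 and ZMAT1, and ERBB3 to FAM222A, CXCL6 and FBXO43, at wider differences of 0.0631 to 0.119. With 2 groups this likeness mainly reflects equal fold changes.

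In the authors' deposited table, AREG, EREG, HBEGF and BTC were marked up and ERBB3 down, while EGFR, ERBB2, ERRFI1, TGFA and EGF carried no mark. Its fold change was 6.82 for HBEGF, 2.25 for AREG, 1.28 for EGFR, 0.878 for ERBB2 and 0.292 for ERBB3 in the authors' deposited table. The missing mark does not mean a high p-value. For EGFR, ERRFI1 and ERBB2 the deposited log2 fold changes were 0.36, 0.65 and -0.19. Their deposited adjusted p, from the authors' unnamed test, were 7.63e-15, 1.11e-62 and 0.00193 in that order. The authors' deposited table gives TGFA a fold change of 7.45 with an adjusted p of 0.169.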

How the data were processed

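RNA-seq libraries came from PANC-1 cells given Schisandrin B or vehicle, 3 each, made with a SMARTER mRNA-Seq kit per the labels' protocols. The authors deposited whole-number counts per Ensembl gene and FPKM values. The authors' table also holds a fold ratio of treated over vehicle with its log2, and deposited p-values from a test named nowhere in the labels or headers. Builds named in the submitters' processing notes are GRCh38 and mm10. Aligner, counter and strandedness were each not given in the sources used here.

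Counts were fitted in R 4.3.3 with edgeR 4.0.16 (filterByExpr, TMM, robust quasi-likelihood F-test, two-sided, Benjamini-Hochberg over 15773 genes). The SE is the log2 fold change over the square root of F, and 95% intervals take it as normal. FPKM served to compare levels between genes. Members and lists were chosen with earlier results of these data known. Named genes were the 10 members, every other ERBB receptor or ligand, and up to 4 called genes with the smallest adjusted p and at least 2 CPM per list; not all are printed. ADAM10, SPRY1, MUC1, EPCAM, CDH1, KRT7, COL1A1, the genes that overlap a member, and the lncRNA and 2 neighbours of the ligand cluster were named after their values were seen.

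The alternatives were 3 other scalings, 2 other filters, DESeq2 1.42.0, limma 3.58.1 voom, log2 FPKM with pseudocounts of 0.1 and 1, a threshold of 0.01, a replicate block, leaving out mitochondrial with ribosomal protein genes, and omission of single libraries. The method was tested on simulated counts. Libraries with the same number had deviations correlated at 0.0337, -0.0527 and -0.0113 across genes, so they were not treated as paired. The 95% intervals of log2 fold changes reflect the spread between libraries, whereas the interval of a ratio of summed counts and the floors cover counting error only. Promoters were found for 9 of the 10 members in the RefSeq table. The ER stress response element and the serum response core were also searched for at first, as longer motifs, and are not reported here.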

Additional observations from a re-analysis of the deposited data

How the results depend on the processing

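The rises of EGFR, ERRFI1, AREG, EREG, HBEGF and BTC and the fall of ERBB3 kept their direction and passed in all 18 alternatives, with log2 fold changes of 0.34 to 0.48, 0.63 to 0.77, 1.16 to 1.29, 1.10 to 1.24, 2.26 to 2.89, 1.03 to 1.17 and -1.96 to -1.08 in that order. The count of members called lower was 1 in place of 2 in 6 alternatives, in each of which ERBB2 was not called. Its log2 fold change was -0.0867 with upper quartile scaling and -0.107 with library totals only. Among genes with at least 5 CPM in 3 libraries it was -0.067. On log2 FPKM it was -0.0662 and -0.0644 with pseudocounts of 0.1 and 1. EGFR moved the same way in these settings, to log2 fold changes of 0.44 to 0.48 from 0.40 in the main fit. The cause of the smaller ERBB2 changes was not tested. At a threshold of 0.01 the estimate was that of the main fit, -0.15, and its edgeR adjusted p of 0.0105 lay above the threshold. In the PI3K list 5 genes in place of 3 were called higher, and 5 in place of 7 lower, on log2 FPKM with either pseudocount. That scale has its own scaling of libraries. The replicate block gave ERBB2 a log2 fold change of -0.15 (adjusted p = 0.0107) and left the member counts at 6 and 2. With 1 library left out the members called stayed at 6 and 2. Over all alternatives, 4428 to 5994 genes were called higher and 4486 to 5885 lower. TGFA had too few counts for the main test and EGF had none. With no low-count filter TGFA had an edgeR adjusted p of 0.0714.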

Other observations

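One FPKM cell of the deposited table is out of scale. GPX4, the glutathione peroxidase that guards against ferroptosis, is listed at 115801071 FPKM in Schisandrin B replicate 1, beside 114.5 and 119 FPKM in the other treated libraries, while its counts of 1734, 1603 and 1546 are alike. That gene was left out of the settings that used FPKM, and the cell touches no value of the EGF receptor family.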
